A study of Mus musculus with 6 samples.

Results

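The keratins, claudins and desmosome genes are the building blocks of epithelial cell contacts and of the filaments anchored in them. Members were taken by symbol: every keratin, claudin, desmoglein, desmocollin and plakophilin in the deposited table, together with Dsp, Jup, Epcam, Ocln and the zonula occludens genes. The rule found 93 of the 29955 genes in the table, namely 28 type I keratins, 22 type II keratins, 23 claudins, 9 desmosomal cadherins, 6 desmosomal plaque and armadillo genes, 4 genes of the occludin and zonula occludens group, and Epcam.

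The study asked how gene expression depends on RNF40, part of the E3 ligase that attaches a single ubiquitin to histone H2B. RNA-seq was performed on primary mouse embryonic fibroblasts (MEFs) at passage 3, with 3 Rnf40+/+ and 3 Rnf40-/- libraries. The paper describes MEFs from embryos homozygous for a floxed Rnf40 allele, with an inducible Cre from the Rosa26 locus (Rosa26-CreERT2). For the deletion, the Rnf40-/- cells had 250 nM 4-hydroxytamoxifen (4-OHT) for 5 days and were grown without it for 3 days. The sources used here do not say whether the Rnf40+/+ cells were also given 4-OHT, so that the deletion and the treatment cannot be told apart. Nor do they say whether the 3 libraries of a genotype came from separate embryos or cultures, and the p-values may then measure technical spread only. MEFs are a mixed primary culture, in which fewer cells of a type and less RNA per cell cannot be told apart.

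The libraries held between 17053436 and 26344170 reads on genes. Rnf40 itself, which checks the labels, was at 1278, 1195 and 1096 normalized counts in Rnf40+/+ and at 439, 519 and 487 in Rnf40-/- libraries. A normalized count is the number of reads on a gene divided by 1 size factor for its library, and 3 reads correspond to 2.40 to 3.58 normalized counts. Rnf40+/+ replicate 3 was the deepest library and lay farthest from the others of its genotype (mean chi-square per gene of 25.9 and 28.8, against 8.35 between the other two), so results that change without it are given in both ways. Fibroblast markers were high in all libraries, with the summed level of 14 collagen, Vim and related genes at 437508 to 499361 normalized counts in Rnf40+/+ and 245469 to 260079 in Rnf40-/-.

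Keratins are intermediate filament proteins that assemble only as pairs of an acidic type I and a basic type II chain, for example Krt18 with Krt8 in simple epithelia or Krt14 with Krt5 in basal layers. Desmosomes tie these filaments to the cell surface: desmogleins and desmocollins bridge neighbouring cells, plakoglobin (Jup) and plakophilins bind their tails, and desmoplakin (Dsp) links the plaque to the filament. In tight junctions claudins and occludin seal the space between cells, and the zonula occludens proteins, such as Tjp1, anchor them to actin. Fibroblasts build their filaments mainly from vimentin, but contain zonula occludens proteins, plakoglobin and some plakophilins in their adherens contacts.

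The 250 bases before the start site are shown for 4 members with clear differences in level, Dsp, Tjp1 and Cldn4 on the rising side and Cldn1 on the falling side. The sequences are from RefSeq on GRCm38.p6, read 5′ to 3′ on the strand of the gene. Capitals mark matches on either strand to 4 motifs: the GC box GGGCGG, the E-box CAGGTG read by factors such as Snai2 and Zeb1, the AP-1 motif TGANTCA and the Grainyhead motif AACCNGTT.
Dsp (chr13:38151044-38151293, plus strand): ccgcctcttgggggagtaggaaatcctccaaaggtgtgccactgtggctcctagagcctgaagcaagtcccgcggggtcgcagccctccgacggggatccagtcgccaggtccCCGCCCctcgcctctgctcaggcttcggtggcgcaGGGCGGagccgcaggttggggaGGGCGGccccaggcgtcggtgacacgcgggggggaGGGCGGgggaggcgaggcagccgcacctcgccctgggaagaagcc
Tjp1 (chr7:65371245-65371494, minus strand): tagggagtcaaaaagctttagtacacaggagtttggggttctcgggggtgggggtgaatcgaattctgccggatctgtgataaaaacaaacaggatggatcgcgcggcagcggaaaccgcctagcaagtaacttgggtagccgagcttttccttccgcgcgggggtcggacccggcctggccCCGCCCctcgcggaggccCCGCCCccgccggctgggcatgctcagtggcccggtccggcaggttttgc
Cldn4 (chr5:134946935-134947184, minus strand): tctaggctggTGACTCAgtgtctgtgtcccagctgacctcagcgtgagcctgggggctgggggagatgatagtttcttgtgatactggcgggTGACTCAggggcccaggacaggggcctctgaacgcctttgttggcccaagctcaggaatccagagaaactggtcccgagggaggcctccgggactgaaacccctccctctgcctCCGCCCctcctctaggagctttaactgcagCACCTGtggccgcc
Cldn1 (chr16:26371840-26372089, minus strand): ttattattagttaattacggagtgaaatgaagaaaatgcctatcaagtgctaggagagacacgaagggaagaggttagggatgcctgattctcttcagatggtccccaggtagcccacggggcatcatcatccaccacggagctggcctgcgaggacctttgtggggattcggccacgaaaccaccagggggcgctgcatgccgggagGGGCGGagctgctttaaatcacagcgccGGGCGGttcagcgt
In these windows Dsp had 4 GC boxes and the highest GC content, 72.4%, followed by Tjp1 with 63.2% and 2 GC boxes. Cldn4 held an E-box, 2 AP-1 motifs and 1 GC box at 62% GC, and Cldn1 held 2 GC boxes at 55.6% GC. The Grainyhead motif was in none of these windows.

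Over 300 bases (250 before and 50 after the start), the E-box was found in 34.7% of 72 promoters of 60 members, against 20.2% of 32851 promoters in the reference. Dsp and Cldn4 were among the members with it, although in Dsp it was not within the 250 bases shown. The other motifs were in similar or lower shares of the member promoters: the GC box in 30.6% against 35.7%, AP-1 in 5.56% against 7.81%, and Grainyhead in 1.39% against 2.09%. These shares are descriptions of letters in the window, and no binding was measured.

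Most members were close to or under the detection limit in these fibroblasts. In all, 12 members had no read in any library (12.9%, against 24.7% of all genes) and a further 24 stayed under 3 reads in every library. The 12 were Cldn9, Cldn11, Cldn13, Cldn17, Krt2, Krt9, Krt26, Krt27, Krt32, Krt35, Krt40 and Krt74. A count of 0 in a library allows up to 3 reads, so these genes were not detectable at this depth. At least 3 reads in all 6 libraries were found for 25 members (26.9%, against 56.1% of all genes), and 62 members (66.7%, against 40.4% of all genes) never reached 10 reads in any library.

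By the rule of 3 reads in every library of a genotype, more members were detected in Rnf40-/- than in Rnf40+/+ cells. At least 3 reads in every library of the genotype were found for 26 members in Rnf40+/+ and 32 in Rnf40-/-. Cldn19 reached this level in Rnf40+/+ only, while Cldn4, Cldn20, Cldn24, Dsc3, Epcam, Krt8 and Tjp3 reached it in Rnf40-/- only. Over all genes the same count was 453 for Rnf40+/+ only and 962 for Rnf40-/- only, so that the direction was shared by the whole table. Of the members named, Krt8 had fewer reads over the Rnf40-/- libraries (15, against 62) and Tjp3 about as many (9, against 8). In single libraries, 38, 34 and 34 members had at least 3 reads in Rnf40+/+ and 38, 38 and 40 in Rnf40-/-, which overlapped. Together the members took 0.0449%, 0.0432% and 0.0421% of the reads in Rnf40+/+ libraries and 0.0733%, 0.0744% and 0.0690% in Rnf40-/- libraries, with no overlap between the genotypes. Most of this difference came from Tjp1, which had 7197 reads over the Rnf40+/+ libraries and 18370 over the Rnf40-/- libraries. It does not describe the members as a whole.

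**Figure D1:**
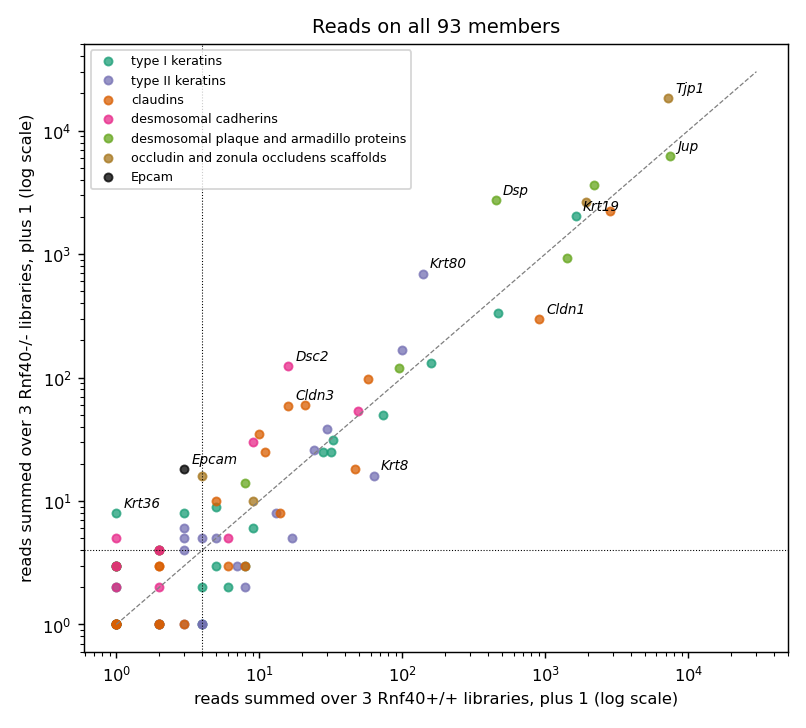
Reads on each of the 93 members, summed over the 3 Rnf40+/+ libraries (x axis) and the 3 Rnf40-/- libraries (y axis), plus 1, on log scales and coloured by gene group. The dashed line marks equal sums and the dotted lines 3 reads. Dsp, Krt80, Dsc2 and Epcam lie above the dashed line, and Cldn1 and Krt8 below it.

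Of the 93 members, 22 had enough reads to be tested, and 9 of these (40.9%) were higher in Rnf40-/- cells while 4 (18.2%) were lower. The higher ones included Dsc2, Dsp, Krt80, Cldn4, Tjp1, Krt7, Cldn22 and Pkp4, and the lower ones were Cldn1, Pkp2, Cldn12 and Jup. Over all 16378 genes tested 23.3% were called higher and 24.1% lower (limma on log2(normalized count + 1), Benjamini-Hochberg adjusted p under 0.05). In the same 13 members the values of the genotypes did not overlap, 9 with all Rnf40-/- libraries above and 4 with all below, against 27.8% and 28.7% of all genes tested. The median log2 fold change was 0.35 over the 22 members and -0.0035 over all genes tested. Dsc2 and Cldn4 passed the filter on low reads only through their Rnf40-/- libraries, so the counts and the median over tested members lean towards rises.

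With the stricter limits of the study (mean above 15, unadjusted p under 0.05 and a log2 change over 1 in size), 4 members were higher, Dsp, Krt80, Tjp1 and Dsc2, and 1 was lower, Cldn1. Those are 18.2% and 4.55% of the members tested, against 4.25% and 5.70% of all genes tested, and Dsc2 is in the first share only through its Rnf40-/- libraries, which took it past the filter and the limit on the mean. By group at an adjusted p under 0.05, 2 of 4 tested claudins were higher and 2 lower, as were 2 and 2 of 5 tested plaque genes. Of 3 tested type II keratins 2 were higher, and of 2 tested desmosomal cadherins 1, with none lower in either group. None of the 6 tested type I keratins was called in either direction. At an unadjusted p under 0.05 limma also found 0 of those 6, and edgeR and DESeq2 called 0 at an adjusted p under 0.05, although Krt19 and Krt20 passed with some libraries left out, as given with their values.

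**Figure D2:**
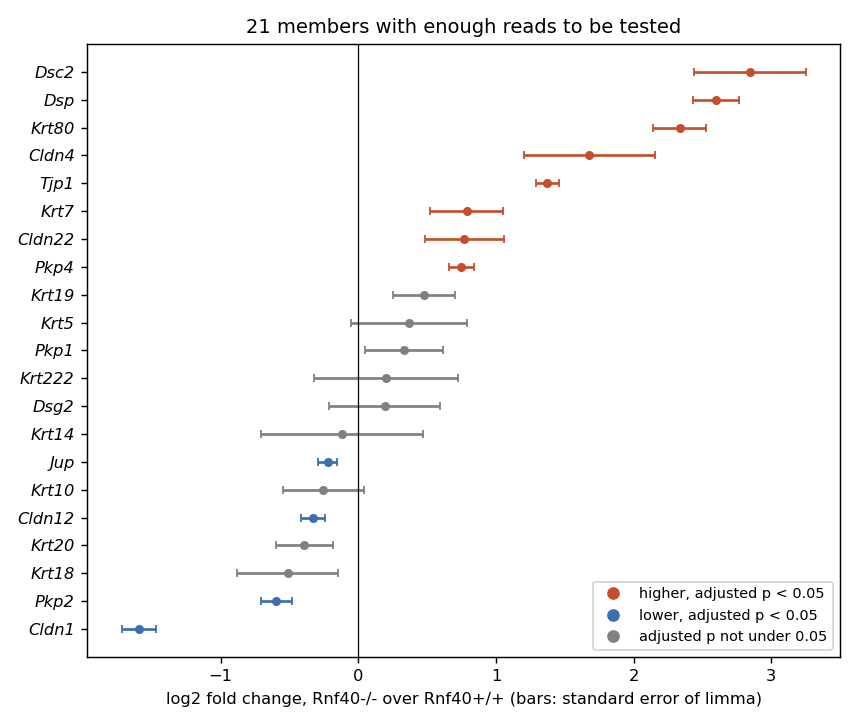
Log2 fold change of Rnf40-/- over Rnf40+/+ (x axis) for 21 of the tested members (y axis), with the standard error of limma as bars. Red points are higher and blue points lower at an adjusted p under 0.05, and grey points did not pass. The values run from -1.60 for Cldn1 to 2.85 for Dsc2.

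Among the desmosome genes, the linker Dsp had the clearest rise, the cadherin Dsc2 was higher from very few reads, and the plaque proteins differed less and in both directions. Dsc2, a desmocollin of many epithelia and of heart muscle, was at 8.36, 3.06 and 3.99 normalized counts in Rnf40+/+ and at 40.8, 35.5 and 45.3 in Rnf40-/- libraries. Its lowest Rnf40-/- value was thus far above its highest Rnf40+/+ value, but the Rnf40+/+ values rest on only 7, 3 and 5 reads. The log2 fold change was 2.85 (SE 0.41, adjusted p = 1.28e-04), with the reservation that only the Rnf40-/- libraries brought Dsc2 past the filter. Dsc2 (ENSMUSG00000024331) lies at chr18:20189134-20218055, minus strand of mm9, next to Dsc3.

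Dsp, the desmosomal linker to intermediate filaments, was well above the detection limit in both genotypes. It was at 182, 167 and 107 normalized counts in Rnf40+/+ and 940.1, 816 and 956 in Rnf40-/-, or 152 ± 39.5 and 904 ± 76.4 (SD, n = 3), a 5.95-fold higher mean. Every Rnf40-/- library was above every Rnf40+/+ library, with a log2 fold change of 2.60 (SE 0.17, adjusted p = 2.65e-07) and values of 2.36 to 2.74 when any 1 library was left out. The gene (ENSMUSG00000054889, chr13:38243197-38290446, plus strand, mm9) shares exon bases with the annotated opposite-strand gene Gm10129, and the strand setting of the counting is not given in the sources used here.

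Among the plakophilins, which cluster desmosomal cadherins at the plaque, Pkp4 rose, Pkp2 fell and Pkp1 did not pass the test. Pkp4, which is also found at adherens junctions, went from 726 ± 82.8 to 1217 ± 71.6 normalized counts (SD, n = 3), with 818, 704 and 657 in Rnf40+/+ and 1297, 1159 and 1193 in Rnf40-/- libraries. Its log2 fold change was 0.75 (SE 0.09, adjusted p = 3.69e-05). Pkp2, the plakophilin of simple epithelia and cardiac muscle, was at 466, 524 and 410.5 in Rnf40+/+ and at 298, 291 and 333 in Rnf40-/- libraries.

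All Rnf40-/- values of Pkp2 were under all Rnf40+/+ values, with a log2 fold change of -0.60 (SE 0.11, adjusted p = 9.13e-04). Pkp1, the plakophilin of stratified epithelia, was at 27.5, 35.7 and 28.7 in Rnf40+/+ and 27.5, 49.1 and 42.5 in Rnf40-/- libraries, which overlapped (log2 0.33, SE 0.28, adjusted p = 0.361). Pkp3 had only 1, 4 and 2 reads in Rnf40+/+ and 1, 6 and 6 in Rnf40-/- libraries and was not tested.

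Plakoglobin (Jup), shared by desmosomes and adherens junctions, was among the most abundant members and differed little. It was at 2264, 2393 and 2614 normalized counts in Rnf40+/+ and 2150.5, 2037 and 2034 in Rnf40-/- libraries, and the genotypes did not overlap. The log2 fold change was -0.22 (SE 0.07, adjusted p = 0.0200). The call was lost without Rnf40+/+ replicate 3 (log2 -0.17, adjusted p = 0.0559), without Rnf40-/- replicate 2 (-0.21, 0.0726) or replicate 3 (-0.21, 0.0661), and with upper-quartile normalization (-0.17, 0.0517).

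The other desmosomal cadherins were low. Dsg2, the most widespread desmoglein, was at 25.1, 10.2 and 13.6 normalized counts in Rnf40+/+ and 20.4, 19.8 and 13.2 in Rnf40-/- libraries, which overlapped (log2 0.19, SE 0.40, adjusted p = 0.724). Dsc3, a desmocollin of stratified epithelia, had 0, 2 and 6 reads in Rnf40+/+ and 15, 6 and 8 in Rnf40-/- libraries. Dsg3 had 5 reads over the 3 Rnf40+/+ libraries and 4 over the 3 Rnf40-/- libraries, Dsg4 had 4 reads in a single Rnf40-/- library, and Dsc1 and the near-identical Dsg1a, Dsg1b and Dsg1c never reached 3 reads. Of the desmogleins, Dsg2 alone exceeded 10 reads in a library.

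Of the zonula occludens scaffolds, Tjp1 was abundant in both genotypes and rose. Tjp1 (ZO-1), which joins tight and adherens junctions to actin, was at 2588, 2449 and 2099 normalized counts in Rnf40+/+ and 6298, 6483 and 5647 in Rnf40-/- libraries. The means were 2379 ± 252 and 6143 ± 439 (SD, n = 3), a 2.58-fold difference, and the log2 fold change was 1.37 (SE 0.08, adjusted p = 1.93e-07). This was the change with the smallest adjusted p among the members. Tjp1 (ENSMUSG00000030516) lies at chr7:72441051-72516125, minus strand of mm9.

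Tjp3 (ZO-3), which is largely epithelial, had 3, 1 and 4 reads in Rnf40+/+ and 3, 3 and 3 in Rnf40-/- libraries. Tjp1 alone made up 23.7% to 28.3% of the members' summed normalized counts in Rnf40+/+ libraries and 42.3% to 46.1% in Rnf40-/- libraries.

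The claudins moved in both directions. Cldn1, a barrier-forming claudin of epidermis and liver, had the largest fall of the tested members: it was at 303, 296 and 292 normalized counts in Rnf40+/+ and 94.8, 92.9 and 106 in Rnf40-/- libraries. The Rnf40-/- mean was 32.9% of the Rnf40+/+ mean, with a log2 fold change of -1.60 (SE 0.12, adjusted p = 1.15e-06) and values of -1.65 to -1.56 with any 1 library left out. Cldn1 (ENSMUSG00000022512) lies at chr16:26356728-26371927, minus strand of mm9.

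Cldn12 fell slightly. It was at 874, 1057 and 868 normalized counts in Rnf40+/+ and 738, 752 and 729.9 in Rnf40-/- libraries (log2 -0.33, SE 0.09, adjusted p = 0.00881), and the genotypes did not overlap. The call was kept with each library left out, where the adjusted p was at most 0.0346. Cldn1 and Cldn12 made up most claudin signal, and the summed claudin level was lower in Rnf40-/- (927 to 968 normalized counts) than in Rnf40+/+ libraries (1217 to 1420).

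Cldn4, a claudin of simple epithelia that limits sodium passage, was low and rose. It was at 2.39, 7.14 and 8.78 normalized counts in Rnf40+/+ and 19.4, 19.8 and 19.8 in Rnf40-/- libraries, which correspond to 2, 7 and 11 reads and to 19, 19 and 21 reads. The log2 fold change was 1.68 (SE 0.48, adjusted p = 0.012) and ranged from 1.21 to 1.98 with 1 library left out. Only the Rnf40-/- libraries brought Cldn4 past the filter.

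Cldn22 was at 17.9, 18.4 and 19.2 normalized counts in Rnf40+/+ and 38.7, 31.3 and 27.4 in Rnf40-/- libraries, without overlap. Its log2 fold change was 0.77 (SE 0.29, adjusted p = 0.0437), just inside the threshold. The call was lost when any 1 of the 6 libraries was left out (log2 0.64 to 0.88, adjusted p = 0.056 to 0.172), in DESeq2 (adjusted p = 0.114), and without the filter (adjusted p = 0.0804). Wwc2, which ends 607 bases from Cldn22 on the opposite strand, was also higher in Rnf40-/- cells, at 2393, 2827 and 2539 against 3664, 3544 and 3580.4 normalized counts (log2 0.48, SE 0.07, adjusted p = 1.68e-04). Whether its reads add to Cldn22 was not tested.

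**Figure D3:**
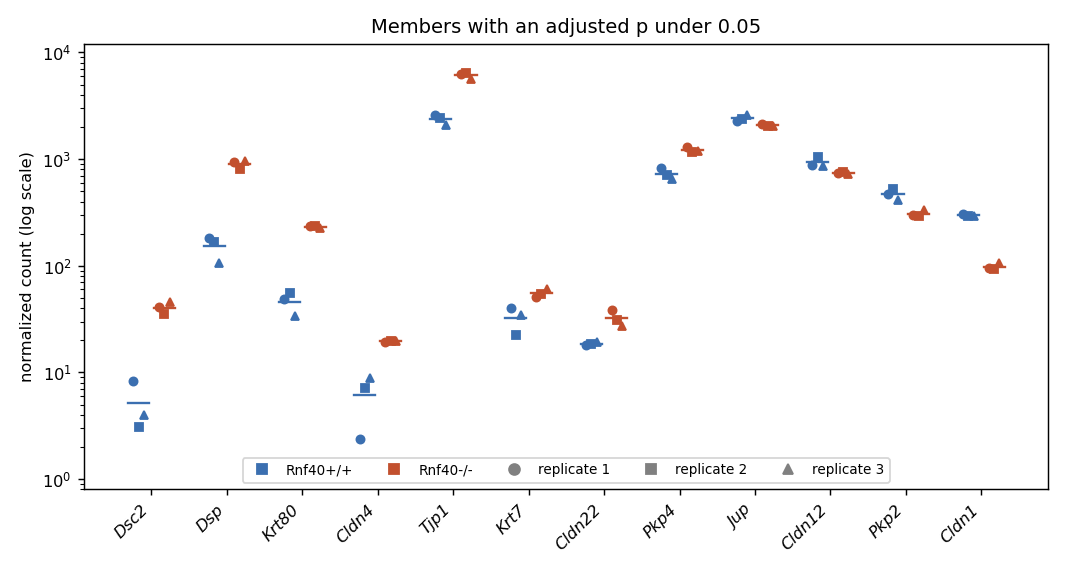
Normalized counts (y axis, log scale) of 12 members with an adjusted p under 0.05 (x axis, from the largest rise to the largest fall), with 1 symbol per library and a line at the mean of each genotype. All Rnf40-/- values (red) lie above all Rnf40+/+ values (blue) for the 8 members on the left, and below them for Jup, Cldn12, Pkp2 and Cldn1.

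Of the keratins, the type II genes Krt80 and Krt7 rose. Krt80, a keratin that is placed near desmosomes in many epithelia, was at 49.0, 56.1 and 33.5 normalized counts in Rnf40+/+ and 234, 238 and 224 in Rnf40-/- libraries. The means were 46.2 ± 11.5 and 232 ± 7.25 (SD, n = 3), a 5.02-fold difference, with a log2 fold change of 2.33 (SE 0.20, adjusted p = 2.01e-06). Krt80 (ENSMUSG00000037185, chr15:101177875-101200556, minus strand, mm9) ends the type II cluster next to Krt7, 40917 bases away.

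Krt7, a keratin of simple epithelia and mesothelium, was at 40.6, 22.4 and 34.3 normalized counts in Rnf40+/+ and 51.0, 54.3 and 60.4 in Rnf40-/- libraries. The genotypes did not overlap, and the log2 fold change was 0.79 (SE 0.26, adjusted p = 0.0278). The call was lost without Rnf40+/+ replicate 2 (log2 0.55, adjusted p = 0.0973), without Rnf40-/- replicate 1 (0.84, 0.0561), replicate 2 (0.80, 0.0703) or replicate 3 (0.72, 0.0953), and in DESeq2 (0.78, 0.0531).

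Krt19, a type I keratin of simple epithelia with an unusually short tail, was the most abundant keratin and was not called. It was at 349.9, 420.1 and 737 normalized counts in Rnf40+/+ and 516, 768 and 737 in Rnf40-/- libraries, and Rnf40+/+ replicate 3 lay as high as the Rnf40-/- libraries. The log2 fold change was 0.48 (SE 0.23, adjusted p = 0.107). Without Rnf40+/+ replicate 3 it was 0.79 (adjusted p = 0.000504) and without Rnf40-/- replicate 1 it was 0.66 (adjusted p = 0.0482), so the call on Krt19 depends on the libraries kept.

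The other type I keratins did not pass the test. Krt20, known from intestinal and urothelial surface cells, was at 103, 193 and 153 in Rnf40+/+ and 122, 103 and 106 in Rnf40-/- libraries (log2 -0.39, SE 0.21, adjusted p = 0.146). Without Rnf40+/+ replicate 1 it was -0.64 (adjusted p = 0.00795). Krt18, the simple-epithelial partner of Krt8, was at 22.7, 18.4 and 27.9 in Rnf40+/+ and 24.5, 12.5 and 12.3 in Rnf40-/- libraries, which overlapped (log2 -0.51, SE 0.37, adjusted p = 0.276).

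Krt10, a keratin of suprabasal epidermis, was at 76.4, 39.8 and 43.1 in Rnf40+/+ and 43.8, 54.3 and 32.1 in Rnf40-/- libraries (log2 -0.25, SE 0.30, adjusted p = 0.507). The basal pair Krt14 and Krt5 and the atypical Krt222 had log2 fold changes of -0.12, 0.37 and 0.20, with standard errors of 0.59, 0.42 and 0.52, and none passed. Krt14, Krt16 and Krt17, as well as Krt6a with Krt6b, share long near-identical stretches, so their few reads cannot be assigned with certainty.

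Krt8, the type II partner of Krt18, was uneven between libraries. It had 49, 1 and 12 reads in Rnf40+/+ and 7, 5 and 3 in Rnf40-/- libraries and did not pass the filter. The ratio of the read sums was 0.248 (95% interval 0.131 to 0.441, counting error only), but Rnf40+/+ replicate 1 alone held 49 of the 62 Rnf40+/+ reads, and without a filter limma gave an adjusted p of 0.510. Krt76, a keratin of oral epithelium, showed the same uneven picture, with 15, 1 and 0 reads in Rnf40+/+ and 1, 1 and 2 in Rnf40-/- libraries (ratio 0.256, 0.0623 to 0.794).

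Of the 71 members below the filter, 59 had a read in any library. The 95% interval of the read ratio of Rnf40-/- over Rnf40+/+ (corrected for the size factors, counting error only) included 1 for 49 of them, lay above 1 for 7 and below 1 for 3. The 7 were Epcam, Cldn3, Cldn20, Cldn24, Dsc3, Krt36 and Ocln, and the 3 were Cldn15, Krt8 and Krt76. These intervals are not adjusted for the number of members, and the same count was not made over all genes. The split is thus a description only. Epcam, an adhesion molecule of nearly all simple epithelia, had 0, 0 and 2 reads in Rnf40+/+ and 4, 4 and 9 in Rnf40-/- libraries. It was the only member with 3 or more reads in all libraries of 1 genotype and under 3 in all of the other. The ratio of the read sums was 8.70 (95% interval 2.07 to 77.7), which is a description only, since the same reads singled Epcam out. Over all genes, 203 had this pattern towards Rnf40-/- and 38 towards Rnf40+/+.

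Cldn3, a tight junction claudin of simple epithelia that lies 39279 bases from Cldn4, had 3, 5 and 7 reads in Rnf40+/+ and 32, 8 and 18 in Rnf40-/- libraries (ratio 3.96, 95% interval 2.22 to 7.52). Its exons overlap Wbscr25 on the other strand. Cldn24, the neighbour of Cldn22, had 3, 4 and 2 reads in Rnf40+/+ and 16, 7 and 11 in Rnf40-/- libraries (ratio 3.87, 1.82 to 9.17). The desmocollin Dsc3 gave a ratio of 3.71 (1.66 to 9.40), and Cldn20 one of 2.46 (1.13 to 5.76).

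Without the filter on low reads, limma called 13 of 81 members with a read higher (16%, against 17.7% of all genes) and 4 lower (4.94%, against 17.1%). The larger share of higher calls seen above thus holds for the members that passed the filter, not for all members with a read. Compared with the 9 calls above, Cldn3, Cldn24, Dsc3, Epcam and Krt36 were added, with adjusted p = 0.0266, 0.0274, 0.0370, 0.01 and 0.017, and Cldn22 was lost. The edgeR test on the reads without the filter, which was added after the values were seen, called 10 of 81 higher (12.3%, against 17.1% of all genes) and 4 lower (4.94%, against 17.8%), with Cldn3 (adjusted p = 0.0127) and Cldn24 (0.0377) inside and Dsc3 (0.0810), Epcam (0.0560) and Krt36 (0.0810) outside the threshold. The calls on Dsc3, Epcam and Krt36 thus depend on the test.

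Krt36, a hair keratin, had no read in Rnf40+/+ and 3, 2 and 2 reads in Rnf40-/- libraries, which is at least 2.39-fold higher against the 3 reads that a count of 0 over the group allows. With the counting error of the Rnf40-/- reads included, the 95% interval of the ratio starts at 1.48. Occludin (Ocln), the transmembrane tight junction protein that claudins accompany, had 3, 0 and 0 reads in Rnf40+/+ and 1, 7 and 7 in Rnf40-/- libraries. Its ratio was 5.12 (95% interval 1.45 to 27.6), but the genotypes overlapped and limma without a filter gave an adjusted p of 0.122. Cldn15, a cation-pore claudin of the gut, pointed the other way with 22, 15 and 9 reads in Rnf40+/+ and 6, 8 and 3 in Rnf40-/- libraries (ratio 0.378, 0.203 to 0.673, adjusted p = 0.0929 without a filter).

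**Figure D4:**
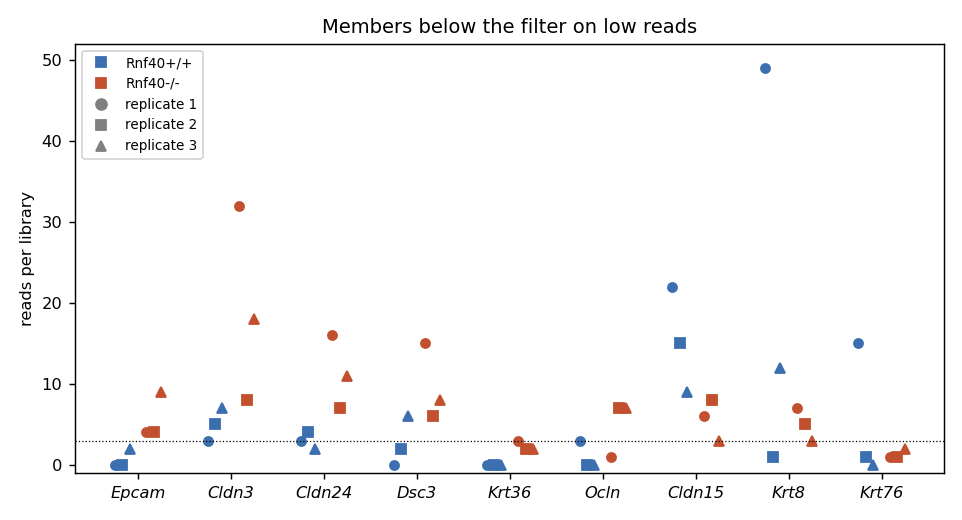
Reads per library (y axis) of 9 members that did not pass the filter on low reads (x axis), with blue symbols for Rnf40+/+ and red symbols for Rnf40-/- libraries. The dotted line marks 3 reads. Epcam lies above it in all Rnf40-/- libraries only, and the high Krt8 and Krt76 values are Rnf40+/+ replicate 1.

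Per length of exon, the order of the members changed at the top. In Rnf40+/+ cells, per kb of exon, Jup led with 377 ± 27.5 (SD, n = 3) normalized counts, ahead of Tjp1 (323 ± 34.3), Krt19 (271 ± 111) and Cldn12 (229 ± 26.4), with Pkp4 (127 ± 14.5) lower. Krt19 overlapped with Jup, Tjp1 and Cldn12 in that order, and the lowest Jup value (351.8) was barely above the highest Tjp1 value (351.6). In Rnf40-/- cells Tjp1 led with 835 ± 59.7 per kb, followed by Krt19 (363 ± 74.2), Jup (322 ± 10.3), and Pkp4 (213 ± 12.6), with Cldn12 (182 ± 2.80) lower. Krt19 and Jup overlapped there. Dsp moved from rank 13 at 15.8 ± 4.11 per kb to rank 7 at 93.9 ± 7.94, and Cldn1 from rank 7 at 91.5 ± 1.74 to rank 12 at 30.1 ± 2.14.

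Many members are neighbours in the genome, with 29 on chromosome 11 (type I keratins, Cldn7 and Jup), 23 on chromosome 15 (the type II keratins and Krt18), 9 on chromosome 18 (the desmocollins and desmogleins) and 7 on chromosome 16. On chromosome 15 Krt80 and Krt7 rose, whereas Krt5 did not pass and Krt8 was uneven. On chromosome 18 Dsc2 rose and Dsc3, 28535 bases away, had more reads in Rnf40-/- libraries, whereas Dsc1, 25148 bases on the other side, stayed under 3 reads and Dsg2 did not pass.

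Of the other junction genes, a list of 40 that includes classical cadherins, catenins, nectins, JAMs and polarity scaffolds, 15 of the 35 tested were higher and 7 lower. These shares, 42.9% and 20%, compare with 23.3% and 24.1% of all genes tested, and the median log2 fold change was 0.32. The largest rise was that of Mllt4 (afadin), which ties nectins to actin and binds ZO-1, from 1101, 1208 and 1061 normalized counts in Rnf40+/+ to 3039.6, 3081 and 2857 in Rnf40-/- libraries (log2 1.41, SE 0.07, adjusted p = 4.53e-08). The largest fall was that of Cdh3 (P-cadherin), from 737, 737 and 1413 to 457, 384 and 434 (log2 -1.11, SE 0.20, adjusted p = 7.43e-04), and without Rnf40+/+ replicate 3, the highest library, it was -0.80. Cdh1 (E-cadherin), the defining cadherin of epithelia, was at 2.39, 4.08 and 3.19 normalized counts in Rnf40+/+ and 7.14, 2.09 and 1.89 in Rnf40-/- libraries and was not tested.

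The other intermediate filament genes and their linkers moved mainly the other way. Of 22 in the list, 16 were tested, of which 4 were higher (25%) and 8 lower (50%), with a median log2 fold change of -0.26. Over all genes tested the shares were 23.3% and 24.1%, so the share of higher calls was near that of all genes. Des (desmin), the muscle filament protein, fell most, from 431, 126 and 114 to 35.7, 27.1 and 42.5 normalized counts (log2 -2.38, SE 0.41, adjusted p = 4.86e-04), and without Rnf40+/+ replicate 1, the highest library, it was -1.77. Bfsp1, a filament protein of the lens, rose most, from 15.5, 22.4 and 22.4 to 42.8, 47.0 and 43.4 (log2 1.12, SE 0.27, adjusted p = 0.00479). Vim (vimentin), the main filament of these cells and named here after its values were seen, was at 101455, 99486 and 85036 in Rnf40+/+ and 78288, 76160.0 and 84374 in Rnf40-/- libraries (log2 -0.26, SE 0.10, adjusted p = 0.0483). The Vim call was kept without Rnf40+/+ replicate 3 (-0.34, 0.00553) and lost without any other library (-0.30 to -0.21, adjusted p = 0.0521 to 0.176).

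Markers of other cell types that these cultures could hold moved as well, and their part in the results was not tested. Of 29 epithelial regulators and markers, 13 were tested and 11 never reached 10 reads. Of the 13, 5 were higher (38.5%) and 1 lower (7.69%), against 23.3% and 24.1% of all genes tested. Log2 fold changes were positive for 12 and negative for 1, with a median of 0.57. Lamb3, a laminin chain of the epithelial basement membrane, rose from 8.36, 1.02 and 6.39 to 107, 102 and 109 normalized counts (log2 4.37, SE 0.49, adjusted p = 1.95e-05). Only the Rnf40-/- libraries brought Lamb3 past the filter on low reads, so the counts and the median of this list lean towards rises. Some other genes of the list were near the detection limit: Ovol2 had no read, Grhl2 only 2 reads in a single library, and Cdh1 stayed at 1.89 to 7.14 normalized counts. The summed level of the list was 1993 to 2536 normalized counts in Rnf40+/+ and 2356 to 2486 in Rnf40-/- libraries, which overlapped. This sum includes Cdh3, the gene called lower, whose values are given above. Cdh3 is a large part of it, so the overlap does not show that the other genes were unchanged.

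Mesothelium also makes Krt7, Krt18 and Krt19. Of 9 mesothelial markers in the list, none at 0, 6 were tested, with 4 higher (66.7%) and 1 lower (16.7%). Over all genes tested these shares were 23.3% and 24.1%. The median log2 fold change of the 6 was 0.99. Msln (mesothelin) rose from 47.8, 66.3 and 42.3 to 257, 217 and 230.4 normalized counts (log2 2.17, SE 0.19, adjusted p = 2.39e-06), and Cdh3, which is also in this list, fell. The summed level overlapped, at 1043 to 1703 in Rnf40+/+ and 1143 to 1268 in Rnf40-/- libraries. Cdh3 is a large part of this sum as well, so the overlap does not show that the other mesothelial markers were unchanged. Without Rnf40-/- replicate 1 only 2 were called higher. The part of these cells in the keratin and claudin values was not tested.

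Endothelial cells also build tight junctions. Of 10 endothelial markers in the list, none at 0, 8 were tested, with 3 higher (37.5%) and 1 lower (12.5%). Over all genes tested these shares were 23.3% and 24.1%. Cdh5 (VE-cadherin) rose from 2.39, 5.10 and 0.799 to 31.6, 39.7 and 23.6 normalized counts (log2 3.26, SE 0.52, adjusted p = 2.95e-04), and Emcn fell from 136, 158 and 84.6 to 46.9, 50.1 and 68.9 (log2 -1.15, SE 0.25, adjusted p = 0.0023). Only the Rnf40-/- libraries brought Cdh5 past the filter on low reads, so the share of higher calls in this list leans towards rises. Without Rnf40+/+ replicate 1, 2 were called lower. The summed level overlapped, at 241 to 330 in Rnf40+/+ and 306 to 403 in Rnf40-/- libraries. Cldn5, the claudin of endothelium, had 1 read in a single Rnf40+/+ library and none in Rnf40-/- libraries.

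Fibroblast markers and the transcription factors that oppose epithelial genes were lower in Rnf40-/- cells. Of 14 defining fibroblast markers 12 fell (85.7%, against 24.1% of all genes tested) and none rose, although without Rnf40+/+ replicate 3 there was 1 called higher. Col1a2, a chain of type I collagen, fell most, from 107178, 113121 and 128919 to 24175, 23758 and 24565 normalized counts (log2 -2.26, SE 0.09, adjusted p = 7.63e-09). All 6 mesenchymal transcription factors (Snai1, Snai2, Zeb1, Zeb2, Twist1 and Twist2) fell, led by Snai2 from 1658, 1773 and 1568 to 761, 765 and 749 (log2 -1.13, SE 0.07, adjusted p = 2.17e-07). Of 9 tested macrophage markers (10 in the list) 2 rose (22.2%) and 4 fell (44.4%), against 23.3% and 24.1% of all genes tested. The summed level of the list was 5744 to 11384 in Rnf40+/+ and 3659 to 4084 in Rnf40-/- libraries. Ptprc (CD45) rose most, from 46.6, 65.3 and 75.9 to 155, 171 and 155 (log2 1.37, adjusted p = 1.20e-04), and C1qa fell most, from 386, 395 and 1211 to 144, 139.8 and 189.8 (log2 -1.86, adjusted p = 7.93e-04). Without Rnf40+/+ replicate 3, the highest library for this list, C1qa was at -1.31 and the Rnf40+/+ sums were 5744 and 6384.

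**Figure D5:**
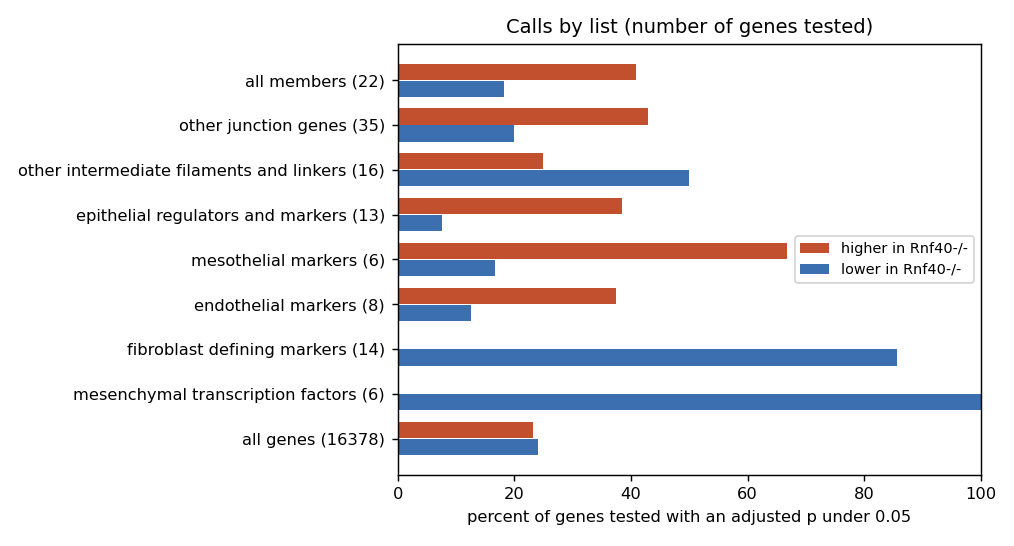
Percent of the tested genes of each list with an adjusted p under 0.05 (x axis), higher (red) or lower (blue) in Rnf40-/- cells, with the number of genes tested in brackets. The members (22) and other junction genes (35) have more higher than lower calls, all genes (16378) have 23.3% and 24.1%, and fibroblast markers and mesenchymal transcription factors have lower calls only. The bars of the members, epithelial and endothelial lists include genes that passed the filter only through Rnf40-/- libraries, and so lean towards rises.

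Of gene lists that accompany the study, the one of 859 EZH2 target genes holds 5 of the 93 members, Cldn3, Cldn7, Cldn23, Dsp and Ocln. Another holds 307 genes whose repressive mark H3K27me3 fell past the study's limit on size in Rnf40-/- cells, among them Dsc2, Dsp and Tjp1. It is narrower than all genes at which the paper found a significant decrease, so members outside it may also have lost the mark. EZH2 is the enzyme that sets H3K27me3. The list of 835 genes with a sharp peak of H3K4me3, a mark of active promoters, holds Pkp4, and that of 834 with a broad peak holds no member. Cldn7 and Cldn23 had 5 and 1 reads over the Rnf40+/+ libraries and 2 and 2 over the Rnf40-/- libraries, so that of the EZH2 targets only Dsp was tested. The table holds 29955 genes in all, and whether members are more frequent in these lists than other genes was not tested.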

How the data were processed

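RNA-seq was performed by the authors on 3 Rnf40+/+ and 3 Rnf40-/- MEF libraries, made with a strand-specific kit and sequenced on an Illumina HiSeq 2000. According to the submitters' processing notes, Bowtie2 (version 2.1.0) and DESeq (version 1.14.0) were used with mm9. The counting tool and its strand setting are not given in the sources used here. The authors scaled the reads of each gene by the DESeq size factor of the library, and the deposited signal holds these normalized counts. In each library 100% of the values were whole multiples of the step of 1 read (tolerance 0.01), and the reads were recovered from that step. Depth was 17053436 to 26344170 reads on genes, which limits the precision of low genes. Intervals of read ratios are exact binomial intervals at 95% and, like the floor of 3 reads, cover counting error only, since the reads have no molecular identifiers.

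Genes were tested with limma (version 3.58.1; lmFit and eBayes with a trend, R version 4.3.3) on log2(normalized count + 1) with genotype as the only term. Fold changes are on this scale and understate the change of low genes. Benjamini-Hochberg adjustment was over the 16378 genes that passed filterByExpr of edgeR (version 4.0.16) on the recovered reads. The count test of edgeR on the same reads called 3857 genes higher and 3940 lower, against 3809 and 3955 in limma, and DESeq2 (version 1.42.0) was a further alternative. The script was tested on simulated data. Single genes were not tested by exact permutation, whose smallest p at this group size is 0.1.

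The members and gene lists were chosen with earlier results of these data known. Named with values were members past an adjusted p of 0.05 in limma, with a mean above 15 in either genotype, or 3 reads in all libraries of 1 genotype and under 3 in all of the other, and the largest rise and fall of each list. The other tested members (Krt5, Krt14 and Krt222) are given by fold change and SE only. Members below the filter with values, apart from Cldn3, Cldn15, Krt8 and Epcam, and Vim were chosen after their values were seen. The lists overlap in a few genes, for example Cdh3. Positions and exon lengths are from GENCODE vM1 on mm9 and were matched by symbol for all 93 members. The values of 1 member are not reported here. Promoters are from RefSeq on GRCm38.p6, where 60 members matched, and no other sequence was used.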

Additional observations from a re-analysis of the deposited data

How the results depend on the processing

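No called member changed direction under any alternative. Of 320 values of the 19 tested members named under the alternatives, 297 kept their side of the threshold, 19 lost it (among them Cldn22, Krt7 and Jup) and 4 gained it (Krt19 and Krt20). The 9 higher calls among the members became 7 in DESeq2 and with at least 10 reads in every library, 8 with a mean above 15, 13 without a filter and 10 in edgeR without a filter, which was added after seeing the data. With a filter 30.4% to 44.4% of the tested members were higher, against 18.2% to 26.2% of all genes, but without one 16% (limma) and 12.3% (edgeR) were, against 17.7% and 17.1%, so the larger share among the members depends on the filter. They ranged from 7 to 10 with each library left out. The 4 lower calls ranged from 3 to 5. The count of members detected depends on the limit: with 10 reads in every library of a genotype it was 17 in Rnf40+/+ and 20 in Rnf40-/- cells, in place of 26 and 32 at 3 reads, and with 1 read it was 37 and 40. The median log2 fold change of 0.35 ranged from 0.16 (without Rnf40-/- replicate 2) to 0.46. Without a filter 8 epithelial markers were higher in place of 5, and with 10 reads in every library 3 epithelial and 1 endothelial marker were. The number of marker genes tested also changed with the filter. Over all genes, limma called 17.7% higher without a filter and 23.2% with at least 10 reads in every library. Apart from the effect of the filters on which genes were tested, the causes were not tested.

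The replicate numbers do not pair the libraries: deviations of same-numbered libraries correlated at 0.0118, 0.0174 and 0.0212. With the replicate block, 9 members were higher and 4 lower, and 4021 genes in all were higher and 4196 lower. The block took Krt19 past the threshold (adjusted p = 0.00397) and Cldn22 out of it (0.0714), and changed no other call among the named members. Genes under about 10 reads, which include 62 members, cannot be called firmly at this depth.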
